A study of Mus musculus with 8 samples.

Results

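Cumulus cells shed into the oviduct at ovulation were compared with cumulus cells still in the follicle a few hours earlier. The comparison used the 2 arrays of 14 h after hCG (human chorionic gonadotropin, which stands in for the LH surge) and the 2 arrays of 9 h, so 4 of the 8 arrays of the series, and took every probe set that is not an Affymetrix control. Which arrays belong to each time was set by the labels of the samples and not by a measured value. The comparison itself, the gene lists and the naming rules were chosen with earlier results of these data known. Each time had 1 array of wild-type (WT) mice and 1 of EP2KO mice, which carry Ptger2(-/-) and so lack EP2, a receptor for prostaglandin E2. All mice were C57Bl/6 females aged 3 to 4 weeks primed with 5 IU of PMSG, a gonadotropin under which follicles grow. They received 5 IU of hCG after 48 h. The remaining 4 arrays were made at 0 and 3 h in the same genotypes. The series as a whole asks how the transcripts of cumulus cells of both genotypes change before and after ovulation.

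At 9 h the complexes of oocyte and cumulus cells were let out of punctured follicles and the cumulus cells were pulled off with glass capillaries. The 14 h complexes, by then ovulated, came out of the oviduct's ampulla, and 0.1% hyaluronidase freed their cumulus cells. Hours after hCG, the passage from follicle to oviduct, and the way in which cells were collected and stripped therefore cannot be told apart. How many mice stand behind an array is not stated in the labels. With 1 array for each genotype and time, the error behind the p-values is the departure of the genotypes from a common time course. That error mixes the spread of single arrays, which may be partly technical, with any genotype effect that differs between times.

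Cumulus cells are granulosa-lineage cells that surround the oocyte. After the LH surge they leave the cell cycle, secrete a hyaluronan-rich matrix that expands the complex, and are released with the oocyte when the follicle ruptures. Granulosa cells left behind in the follicle become luteal cells, while the cumulus mass enters the oviduct, where fertilization takes place in its presence.

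The values are log2 signals from RMA (robust multi-array average), so a difference of 1 is a 2-fold change. They have no true zero, and array medians were 7.84 to 7.86 at 9 and 14 h. Ptger2 read 5.37 in WT and 4.69 in EP2KO at 9 h and 5.33 and 4.51 at 14 h, so it was lower in EP2KO at both times. Of 11 measured genes that mark cumulus and granulosa cells, all 11 lay above the array median on both 9 h arrays and 8 of 11 on both 14 h arrays, with Inha at 13.61 to 13.68 and 12.34 to 12.70. Of these markers 6 of 11, Inhbb, Ptx3, Esr2, Has2, Inha and Inhba, were called lower at 14 h (limma, adjusted p under 0.05), against 11.4% of all genes, and none higher. Their median change was −0.74 in the fit, −0.80 in WT and −0.95 in EP2KO. Their summed linear signal was 25455 and 28251 at 9 h in WT and EP2KO and 14805 and 12488 at 14 h, against 40690 to 46445 on the arrays of 0 and 3 h. A large part of the fall in this sum from 9 to 14 h came from Inha alone. The part of the fall in these markers in the results was not tested. At 9 h the Gapdh control probe sets at the 3′ end exceeded those at the 5′ end by 1.71 in WT and 1.22 in EP2KO, and at 14 h by 2.87 and 2.82. This gap widens where RNA or its amplified copies are shorter. For the Actb controls the gap was 1.54 and 1.12 at 9 h and 1.61 and 1.37 at 14 h. The part of this difference in the results was not tested.

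From 9 to 14 h, 2496 of 12422 probe sets changed in limma's moderated test at an adjusted p under 0.05, which is 20.1% of those tested. Of these, 1247 were higher at 14 h (10.0%) and 1249 lower (10.1%), and a change of at least 2-fold was seen in 257 of the higher and 419 of the lower ones. All 2496 moved in the same direction in WT and in EP2KO, against 8569 of all probe sets (69.0%). This agreement is largely built into the test. Its error is the departure of the genotypes from each other, so a probe set with opposite signs could hardly be called. Both 14 h arrays lay above all 6 earlier arrays for 889 of the 1247 higher probe sets (71.3%), against 13.2% of all probe sets. They lay below all 6 for 923 of the 1249 lower ones (73.9%), against 12.6%. The change thus went outside the range of the earlier time course for most of the probe sets called. Over all probe sets the median change was 0.03 and the median standard error 0.130. Without the EP2KO 9 h array 606 were higher and 680 lower, without the WT 9 h array 703 were higher, and without the WT 14 h array 794. With the 4 arrays of 9 and 14 h alone, which leave 1 residual degree of freedom, 699 were called and 698 of them were among the 2496.

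**Figure D1:**
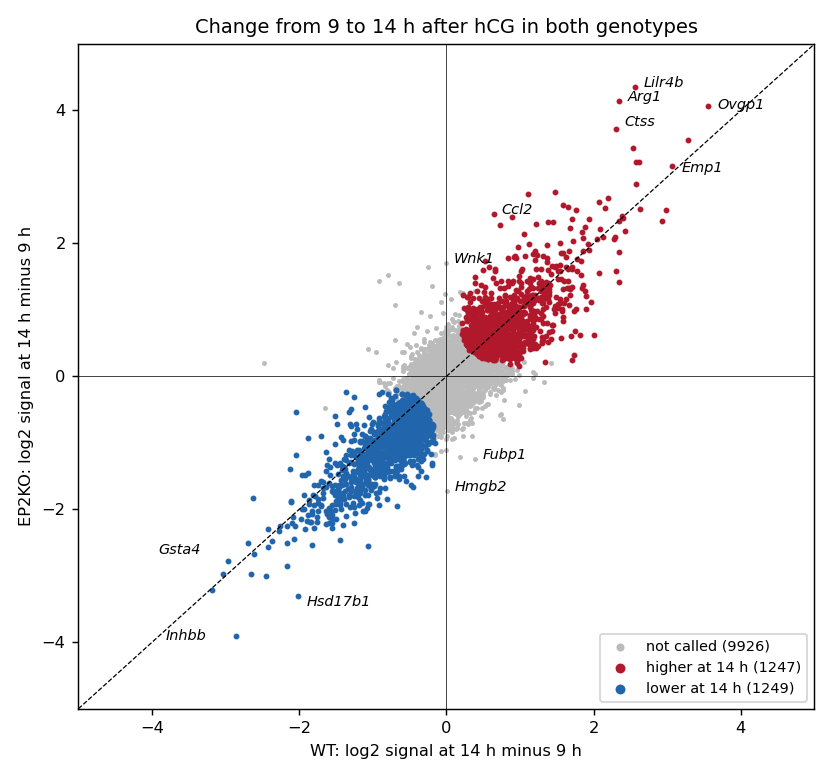
Each point is a probe set, with its log2 change from 9 to 14 h in WT on the x axis and in EP2KO on the y axis, both as single-array differences; red and blue points were called higher and lower and the dashed line marks equal change. The called probe sets lie in the quadrants where both genotypes moved the same way, with Ovgp1 and Lilr4b at the upper end and Inhbb at the lower end.

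Taking 1 probe set per gene, 932 of 8251 genes were higher at 14 h (11.3%) and 942 lower (11.4%). The members of each gene list below are to be read against these shares. Of 888 measured list genes 339 were called. Of these, 204 were also called when any 1 array was left out, and no gene turned its direction. Named list genes said to have risen or fallen belong to these 204 unless a sentence says otherwise. With only the 4 arrays of 9 and 14 h 131 of the 339 were called. Of 130 further probe sets of called list genes 87 were not called, and the other probe sets of a named gene are not always given.

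Among the genes with the largest rises, the first was a product of the oviduct. Ovgp1, oviductal glycoprotein (probe set 100521_at), read 7.57 in WT and 7.39 in EP2KO at 9 h and 11.13 and 11.46 at 14 h. Its rise was 3.81 ± 0.151 (limma, adjusted p = 8.75e-07), and a further probe set rose by 2.99. Errors of a change are moderated standard errors from the fit to all 8 arrays, with n = 2 arrays at each time. On the 6 earlier arrays probe set 100521_at stayed between 7.05 and 7.76, so no 14 h value overlapped with them.

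Matrix and membrane proteins followed. Tnc, tenascin C, a matrix glycoprotein of remodelling tissue (162362_f_at), read 5.75 and 5.58 at 9 h and 9.03 and 9.13 at 14 h in WT and EP2KO. Its rise was 3.42 ± 0.165 (limma, adjusted p = 1.96e-06), with 2.92 for its other probe set. Emp1, an epithelial membrane protein (97426_at), went from 8.59 and 8.36 to 11.66 and 11.53, a rise of 3.12 ± 0.119 (limma, adjusted p = 8.75e-07). In both genes the genotypes lay close to each other at each time and far apart between times. Gas1, a membrane protein of growth-arrested cells, rose by 2.63 (8.73 and 8.66 against 11.66 and 10.99). Abcb1b, a drug efflux pump, rose by 2.44 (8.25 and 7.49 against 10.45 and 10.18), and Itm2a, a membrane protein, by 2.58 (7.30 and 7.59 against 9.93 and 10.11). Ndrg1, a stress and hypoxia response gene, rose by 2.40, Atp13a3, a cation-transporting ATPase, by 2.75, and Aplp2, an amyloid precursor-like protein, by 2.39. A second probe set of Atp13a3 rose by 1.78, while the other Aplp2 probe set read 0.06 and was not called.

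Several of the largest rises were in genes known from myeloid cells. Lilr4b, an inhibitory immunoglobulin-like receptor of leukocytes (100325_at), read 4.60 and 4.35 at 9 h in WT and EP2KO and 7.16 and 8.71 at 14 h. Arg1, arginase (93097_at), read 6.89 and 7.01 at 9 h and 9.24 and 11.15 at 14 h. Ctss, cathepsin S of antigen-presenting cells (98543_at), read 6.11 and 6.04 at 9 h and 8.41 and 9.76 at 14 h. In all 3 the EP2KO array was the higher of the 14 h arrays and both lay above every earlier array. The rises were 3.46 ± 0.331 for Lilr4b, 3.25 ± 0.376 for Arg1 and 3.01 ± 0.310 for Ctss (limma, adjusted p = 5.96e-05, 1.93e-04 and 9.01e-05). With the 4 arrays alone these calls ended, at adjusted p = 0.0621, 0.0662 and 0.0568 in limma. Saa3, an acute-phase protein, read 7.40 and 7.26 at 9 h and 9.97 and 10.48 at 14 h and rose by 2.90 ± 0.153. Lgmn, a lysosomal endopeptidase, rose by 2.73 (7.98 and 7.91 against 10.56 and 10.80), and Gm2a, a lysosomal activator of ganglioside breakdown, by 2.35 (9.52 and 9.58 against 11.68 and 12.12).

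The largest fall was that of a hormone subunit. Inhbb, the beta B subunit of inhibin and activin (160828_at), read 10.19 in WT and 11.17 in EP2KO at 9 h and 7.33 and 7.26 at 14 h. It fell by 3.38 ± 0.213 (limma, adjusted p = 8.38e-06). Hsd17b1, which makes estradiol from estrone (92557_at), read 10.85 and 11.85 at 9 h and 8.83 and 8.54 at 14 h. In both genes the EP2KO array was above WT at 9 h, the genotypes came close together at 14 h, and the times did not overlap. Hsd17b1 fell by 2.67 ± 0.232 (limma, adjusted p = 3.68e-05), a call that ended with the 4 arrays alone (adjusted p = 0.0581).

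Among the other large falls were detoxification, RNA and sterol genes. Gsta4, a glutathione transferase of lipid peroxidation products, read 9.82 and 9.41 at 9 h and 6.85 and 6.64 at 14 h and fell by 2.87 ± 0.259 (limma, adjusted p = 4.24e-05). Mt1, a metallothionein, went from 12.83 and 12.69 to 10.55 and 10.36, and fell by 2.31. Prmt1, the main arginine methyltransferase, went from 10.32 and 10.73 to 7.87 and 7.73, and fell by 2.73. Gsta4 and Prmt1 thereby went below their 0 h levels of 8.08 and 8.45 and of 9.69 and 10.02, whereas Mt1 stayed above its 9.79 and 9.84 at 0 h. Gpr83, an orphan receptor, returned from 7.47 and 7.46 at 9 h to 4.77 and 4.95, close to its 4.97 and 5.07 at 0 h. Zbtb16, a zinc finger repressor, went from 8.44 and 7.73 to 5.81 and 5.90, while its other probe set read 0.03 and was not called. Pdlim1, an actin-associated adaptor, fell by 2.49 on 1 probe set and rose by 0.49 on another. Elob, a subunit of elongin, Atp5e, a subunit of the ATP synthase, Lsm7, an RNA decay factor, and Cks1b, a cyclin-dependent kinase subunit, fell by 2.18 to 2.26, with 0.70 for the second Elob probe set.

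**Figure D2:**
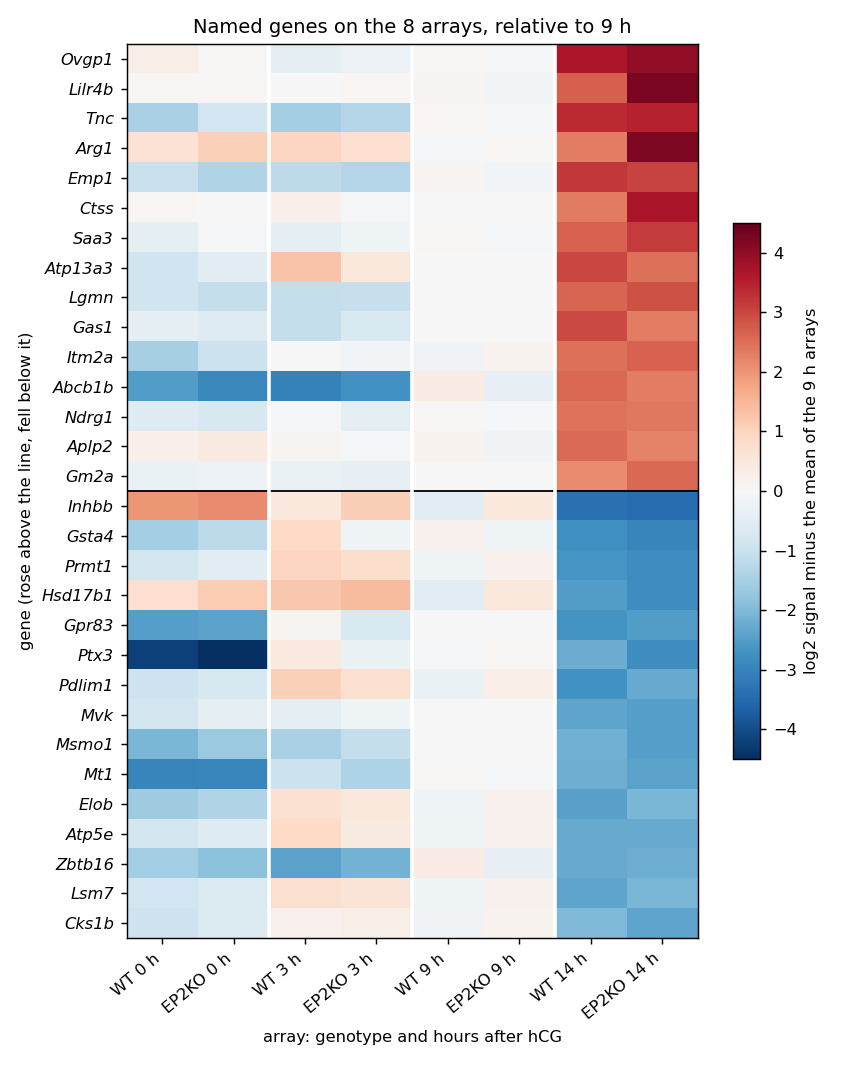
Rows are the 15 genes with the largest rises and the 15 with the largest falls, columns the 8 arrays ordered by hours after hCG, and colour the log2 signal minus the mean of both 9 h arrays. The 14 h columns stand apart from the 9 h columns in both genotypes. Several genes that fell, among them Ptx3, Mt1, Gpr83, Msmo1 and Zbtb16, were also lower at 0 h than at 9 h.

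For the hyaluronan matrix of cumulus expansion, 2 of 20 measured genes fell, a share near the 11.4% of all genes. None rose, against 11.3% of all genes, and the median change was 0.01 against 0.03 over all genes. Has2, the hyaluronan synthase of expansion, read 8.64 in both genotypes at 9 h and 7.39 and 7.45 at 14 h, level with its 7.39 and 7.21 at 0 h. It fell by 1.22 ± 0.173 (limma, adjusted p = 6.31e-04). Ptx3, a pentraxin that crosslinks hyaluronan, went from 11.68 and 11.81 to 9.51 and 8.96 and fell by 2.51 ± 0.183 (limma, adjusted p = 1.48e-05), still above its 7.54 and 7.23 at 0 h. Tnfaip6, which transfers heavy chains to hyaluronan, read 8.89 and 8.37 at 9 h and 9.11 and 8.48 at 14 h, a change of 0.17 (adjusted p = 0.461). Vcan, a hyaluronan-binding proteoglycan, changed by −0.15 and was not called either.

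Of 16 measured prostaglandin genes 4 fell and none rose, with a median change of −0.08. Pla2g4a, the phospholipase that frees arachidonic acid, read 9.62 and 9.89 at 9 h and 8.60 and 8.21 at 14 h and fell by 1.35 ± 0.181 (limma, adjusted p = 4.71e-04). Hpgd, which breaks prostaglandins down, Ptges, a prostaglandin E synthase, and Ptgis, the prostacyclin synthase, changed by −0.90, −0.88 and −0.87. None of these 3 was called when the EP2KO 9 h array was left out, nor Hpgd and Ptges when the EP2KO 14 h array was. Ptgs2, the inducible cyclooxygenase, read 10.84 and 9.92 at 9 h and 10.04 and 10.09 at 14 h against 4.83 and 5.03 at 0 h. It was lower in WT and level in EP2KO, changed by −0.32 and was not called (adjusted p = 0.451). The other EP receptor genes Ptger1, Ptger3 and Ptger4 were not called.

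Of 14 measured genes of EGF-like ligands and MAP kinase feedback 2 rose and 1 fell. Btc, betacellulin, read 6.28 and 6.41 at 9 h and 5.43 and 4.87 at 14 h and fell by 1.20 ± 0.177 (limma, adjusted p = 8.28e-04). Ereg, epiregulin, changed by −0.33 and was not called, and its genotypes moved apart, from 8.19 to 7.13 in WT and from 6.93 to 7.34 in EP2KO. Dusp1, a phosphatase that ends MAP kinase signals, rose by 1.21, from 9.28 and 9.14 to 10.26 and 10.57. Tgfa, a further ligand, changed by 0.41 and lost its call when any single array of 9 or 14 h was left out.

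Immediate early genes were more often called higher than lower at 14 h. Of 26 measured, 9 rose and 1 fell, with a median change of 0.39 in the fit, 0.06 in WT and 0.60 in EP2KO. Myc, a growth-promoting transcription factor, read 6.28 and 6.43 at 9 h and 7.87 and 8.29 at 14 h. It rose by 1.73 ± 0.145 (limma, adjusted p = 2.99e-05) and stood above its 7.26 and 7.56 at 3 h. Egr2, a zinc finger factor, went from 9.51 and 9.44 to 10.79 and 10.63 and rose by 1.24, and Btg2, an antiproliferative gene, by 1.15. Zfp36l1, an RNA decay factor, rose by 0.95 and Nr4a2, an orphan nuclear receptor, by 0.91. Ier2, in contrast, fell by 1.05, from 12.32 and 11.88 to 10.80 and 11.29. Nr4a1, Btg1, Mcl1 and Jund were also called higher but lost the call without at least 1 array.

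Of 22 measured ovulatory transcription factors and regulators 3 were higher and 5 lower. Cebpb, which is needed for ovulation, held at 12.24 and 12.23 at 9 h and fell by 1.27 ± 0.208 (limma, adjusted p = 1.52e-03) to 10.72 and 11.21. Pparg, a nuclear receptor, fell by 1.35, from 7.98 and 8.73 to 7.02 and 6.98, and Esr2, the estrogen receptor of granulosa cells, by 1.49, from 8.67 and 9.46 to 7.61 and 7.54. Foxo3, a forkhead factor of quiescence, rose by 0.72. Runx1 and Nr5a1, called higher, and Cebpd and Epas1, called lower, lost their calls without at least 1 array. When the EP2KO 9 h or the WT 14 h array was left out 3 of the 22 were lower. Pgr, the progesterone receptor, read 4.75 and 4.78 at 9 h and 4.76 and 4.97 at 14 h, far below the array medians.

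Of 26 measured granulosa identity genes 7 fell and 1 rose, with a median change of −0.04. Besides Inhbb, Hsd17b1 and Esr2 the falls included Inha, the shared inhibin subunit, by 1.12 ± 0.141 (limma, adjusted p = 3.02e-04), from 13.61 and 13.68 to 12.70 and 12.34. Ccnd2, the cyclin D that FSH raises, fell by 1.46, from 9.63 and 10.07 to 8.45 and 8.34. Inhba and Fst, activin A subunit and follistatin, changed by −0.74 and −0.53 and lost their calls without at least 1 array. Fshr, the FSH receptor, had come down to 9.27 and 9.24 at 9 h from 10.78 and 11.11 at 0 h, read 9.19 on both arrays of 14 h, and was not called. Nr5a1, the steroidogenic factor, was the gene called higher, at 0.62. Of its other probe sets 2 were also called, at 0.98 and 0.52, and 2 were not, at −0.07 and −0.21.

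Of 38 measured genes of BMP and TGF-beta signalling 8 fell and 3 rose. Id1 and Id3, inhibitors of helix-loop-helix factors that BMP signals induce, fell by 1.85 ± 0.137 and 1.64 ± 0.154 (limma, adjusted p = 1.54e-05 and 5.36e-05). Id1 read 8.87 and 9.32 at 9 h and 7.27 and 7.21 at 14 h, and Id3 10.76 and 11.59 against 9.45 and 9.63. Smad6, an inhibitory SMAD, fell by 0.89. Eng, endoglin, a TGF-beta co-receptor that also marks endothelium, fell by 0.82. Ltbp1, which stores TGF-beta in the matrix, rose by 2.06 ± 0.132 (limma, adjusted p = 9.17e-06), from 7.0 and 7.02 to 9.05 and 9.08, and Bmp6 rose by 1.09. The signalling receptors of both pathways in the list were not called. Id2 was called higher, at 1.19, and lost the call without the WT 14 h, EP2KO 9 h or EP2KO 14 h array.

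Of 17 measured steroid synthesis genes 3 rose and 2 fell, shares near those of all genes, with Hsd17b1 as the larger fall. Star, which brings cholesterol into mitochondria, read 10.18 and 9.73 at 9 h and 8.96 and 8.30 at 14 h and fell by 1.32 ± 0.178 (limma, adjusted p = 4.79e-04), while its other probe set read −0.35 and was not called. Cyp11a1, which cleaves the cholesterol side chain to start steroid synthesis, read 10.30 and 9.63 at 9 h and 11.89 and 12.21 at 14 h. It rose by 2.08 ± 0.264 (limma, adjusted p = 3.28e-04), above every earlier array. Npc2, which hands cholesterol out of lysosomes, rose by 0.87. Hsd3b1, which makes progesterone, changed by −0.36 and was not called.

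Cholesterol synthesis fell almost throughout. Of 17 measured genes 13 were lower and none higher, with a median change of −0.88 in the fit, −0.84 in WT and −1.01 in EP2KO, and 10 of the 13 fell without each array in turn. Msmo1, sterol methyl oxidase (160388_at), read 12.25 and 12.27 at 9 h and 10.09 and 9.77 at 14 h, close to its 10.20 and 10.59 at 0 h. It fell by 2.33 ± 0.172 (limma, adjusted p = 1.53e-05). Sqle, squalene epoxidase, fell by 1.65 ± 0.118, from 11.30 and 11.43 to 9.66 and 9.77. Idi1, isopentenyl diphosphate isomerase, fell by 1.82, Mvd, mevalonate decarboxylase, by 1.60, Nsdhl, a sterol dehydrogenase, by 1.55 and Fdft1, squalene synthase, by 1.06. Mvk, mevalonate kinase, fell by 2.43 on the probe set with the smaller p and by 0.67 on the other, which lost the call without 2 of the arrays.

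Hmgcs1, the cytosolic HMG-CoA synthase, read 10.80 and 11.01 at 9 h and 9.29 and 9.00 at 14 h and fell by 1.76 ± 0.216 (limma, adjusted p = 2.74e-04). Its promoter is shown because it was the only one of the 14 cholesterol genes with a listed promoter that held the sterol regulatory element TCACNCCAC, read on both strands, within the 250 bases before the start. That element stood in 1.44% of the 6576 measured genes with a promoter in the table. The stretch is at chr13:119690184-119690252 on the plus strand of GRCm38.p6, from RefSeq, with the match in capitals.

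Hmgcs1: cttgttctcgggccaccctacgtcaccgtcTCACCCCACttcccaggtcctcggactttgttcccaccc

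Cell cycle genes fell in both of their main groups. Of 38 measured genes of mitosis 25 fell and none rose, with a median change of −0.84 (−0.55 in WT and −1.18 in EP2KO), and of 46 of DNA replication 23 fell and none rose, with a median of −0.46 (−0.34 in WT and −0.65 in EP2KO). Both 14 h arrays lay below all 6 earlier arrays for 30 of the 38 and 35 of the 46. Of the 25 mitosis genes 18 fell without each array in turn. For DNA replication 12 did so, and leaving out the EP2KO 9 h array gave 12 calls and the EP2KO 14 h array 13.

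Cks1b, a kinase subunit of the cell cycle, read 10.77 in WT and 11.12 in EP2KO at 9 h and 8.95 and 8.58 at 14 h and fell by 2.18 ± 0.166 (limma, adjusted p = 1.69e-05). Cdc20, an activator of the anaphase-promoting complex, went from 11.49 and 12.03 to 10.13 and 9.93, and fell by 1.73 ± 0.176. Birc5, survivin, of the chromosomal passenger complex, went from 8.95 and 9.33 to 7.32 and 7.30 and fell by 1.83. At 9 h Cks1b was above, Cdc20 near and Birc5 somewhat below its 0 h level, and all 3 were lower than every earlier array at 14 h. Aurka, a spindle kinase, and Mki67, the proliferation antigen Ki-67, both fell by 1.65. Top2a, topoisomerase II, fell by 1.53 and Cdk1, the mitotic kinase, by 1.17. The other probe set of Mki67 read 0.23 and was not called. Plk1, the polo kinase, Kif11, a spindle motor, and Foxm1, a regulator of mitotic genes, were not called, with changes of −0.18, 0.01 and 0.14, although another Plk1 probe set was called at −0.66.

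Among replication genes Pclaf, a PCNA-binding protein, read 9.58 and 9.80 at 9 h and 7.73 and 7.61 at 14 h and fell by 2.02 ± 0.150 (limma, adjusted p = 1.57e-05). Mcm3, of the replicative helicase, fell by 1.57, from 10.15 and 10.45 to 8.83 and 8.63, and was already lower at 9 h than at 0 h, when it read 11.04 and 11.22. Fen1, a flap endonuclease, fell by 1.52, Rfc4, of the clamp loader, by 1.39, Rpa1, which coats single-stranded DNA, by 1.01 and Cdc6, a helicase loader, by 0.97. Pcna, the sliding clamp, Mcm4 and Rrm2, of ribonucleotide reductase, were called at −0.94, −0.90 and −1.03 and lost their calls without the EP2KO 9 h or the EP2KO 14 h array.

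Promoters of the 4 mitosis genes with the largest falls among those that hold the cell cycle homology region TTTGAA are shown, since this short element is a known feature of mitotic promoters. Read on both strands within 250 bases before the start, it was in 14 of the 30 measured mitosis genes with a promoter in the table (46.7%), against 13.8% of the 6576 measured genes. Among the 21 of them that fell it was in 10 (47.6%). In replication genes it was in 6 of 40 (15%). A match says only that the letters occur there. The sequences are from RefSeq on GRCm38.p6, with matches in capitals: Cks1b at chr3:89418292-89418338, Cdc20 at chr4:118437344-118437391, Mki67 at chr7:135716442-135716507 and Top2a at chr11:99024190-99024242, all on the minus strand.

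Cks1b: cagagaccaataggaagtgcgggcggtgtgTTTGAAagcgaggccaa
Cdc20: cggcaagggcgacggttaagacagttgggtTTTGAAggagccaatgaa
Mki67: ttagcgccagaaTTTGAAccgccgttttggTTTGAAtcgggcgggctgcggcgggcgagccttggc
Top2a: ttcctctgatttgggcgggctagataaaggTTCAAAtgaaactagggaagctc

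In Cks1b, Cdc20 and Top2a the match shown begins 17, 18 and 23 bases before it, and in Mki67 the nearer of the matches 98 bases before it. For replication genes the E2F site was searched as TTTGGCGC, TTTCGCGC, TTTCCCGC or TTTGCCGC on both strands. It was in 9 of 40 with a promoter (22.5%), against 3.63% of the 6576 measured genes, and in 2 of the 20 that fell (10.0%). These were Cdc6, at chr11:98907983-98908050 on the plus strand, and Pola1, DNA polymerase alpha, at chrX:93632256-93632323 on the minus strand. Pola1 was called at −0.77 and lost the call without the EP2KO 9 h or the EP2KO 14 h array.

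Cdc6: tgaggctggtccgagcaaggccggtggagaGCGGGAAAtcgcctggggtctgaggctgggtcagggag
Pola1: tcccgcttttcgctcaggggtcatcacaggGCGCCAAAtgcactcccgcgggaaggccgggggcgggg

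**Figure D3:**
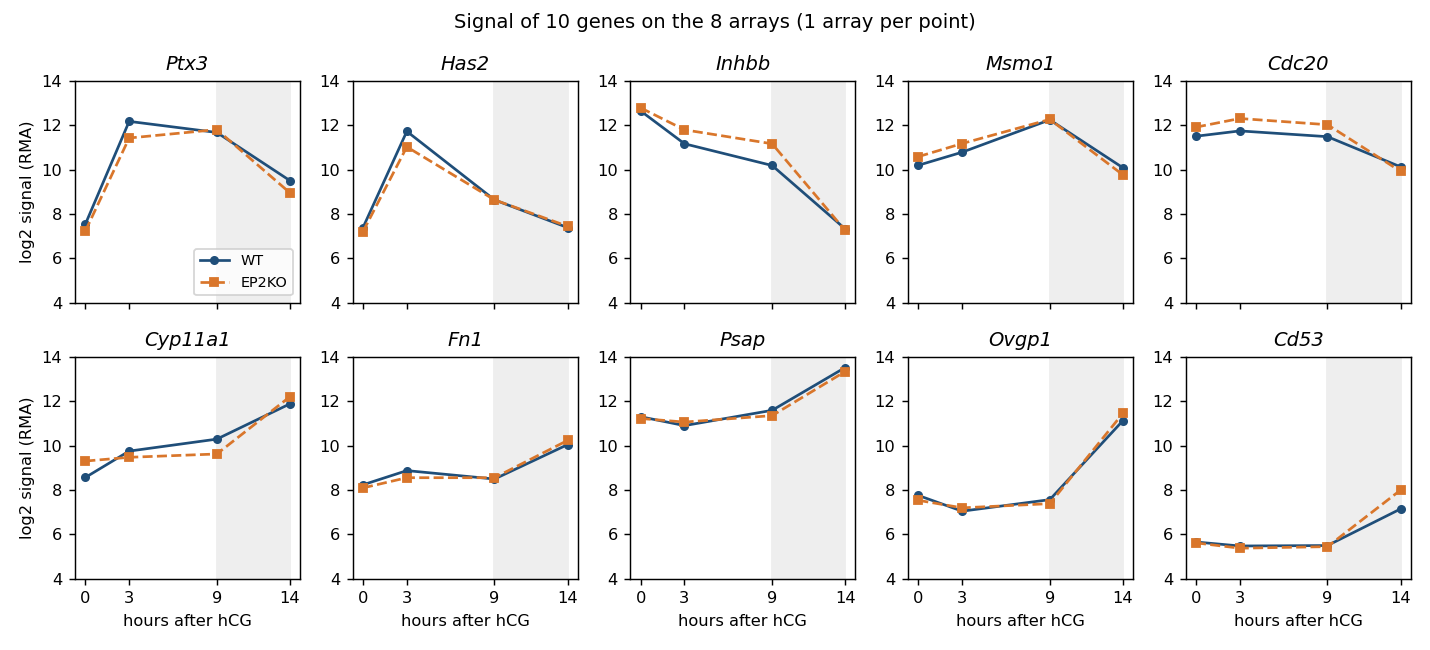
Each panel plots the log2 signal of 1 gene against hours after hCG, with 1 array per point, WT as a solid and EP2KO as a dashed line, and the interval from 9 to 14 h shaded. Ptx3, Has2, Inhbb, Msmo1 and Cdc20 are lower at 14 h than at 9 h in both genotypes, and Cyp11a1, Fn1, Psap, Ovgp1 and Cd53 are higher.

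Of 41 measured collagens, laminins and other matrix proteins 15 rose and 1 fell, with a median change of 0.18, and 37 of 41 were above 0. Fn1, fibronectin, read 8.50 and 8.56 at 9 h and 10.05 and 10.24 at 14 h and rose by 1.61 ± 0.140 (limma, adjusted p = 3.68e-05). Col4a2, of basement membrane collagen, went from 9.74 and 9.51 to 11.23 and 11.17 and rose by 1.57, and Col4a1 from 11.54 and 10.64 to 12.48 and 12.42, by 1.36. Tgfbi, a matrix protein that TGF-beta induces, rose by 1.89 on 1 probe set and read 0.19 on the other. Col5a2, Col6a1 and Lamc1, of fibrillar collagen, collagen VI and laminin, rose by 1.32, 1.08 and 0.88. Leaving out the EP2KO 9 h or the WT 14 h array left 9 of the 41 higher. The single fall, Mgp at −0.72, lost its call without most of the arrays.

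Of 23 measured integrins and adhesion receptors 5 rose and none fell, and of 43 actin and focal adhesion genes 12 rose and 5 fell. Cd9, a tetraspanin, read 8.93 and 9.05 at 9 h and 10.51 and 10.36 at 14 h and rose by 1.45 ± 0.125 (limma, adjusted p = 3.68e-05). Sdc4, a syndecan of focal adhesions, rose by 1.01. Vcl, vinculin, which ties integrins to actin, went from 10.01 and 9.72 to 12.09 and 11.94 and rose by 2.15 ± 0.216 (limma, adjusted p = 7.83e-05), while its other probe set was not called. Msn, moesin, rose by 1.56 and Actn1, alpha-actinin, by 1.37. Tmsb10, which binds actin monomers, fell by 1.60. Itgb1, the main beta integrin, was called at 0.65 and lost the call without the WT 14 h or the EP2KO 9 h array, and its other probe set was called at 1.21 (limma, adjusted p = 8.4e-05). Leaving out the EP2KO 9 h array left 3 adhesion receptors and 5 actin genes higher. Of 15 measured CCN genes and YAP pathway genes 4 were higher and none lower, with Ccn5 at 1.11, Yap1 at 0.90 and Lats2, a kinase that restrains YAP, at 0.73.

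Protease and lysosome genes were more often called higher than lower. Of 35 measured proteases and inhibitors 11 rose and 2 fell, and of 39 lysosome and autophagy genes 16 rose and 1 fell, with medians of 0.14 and 0.32. Plat, tissue plasminogen activator, read 7.96 and 7.91 at 9 h and 9.81 and 9.79 at 14 h and rose by 1.86 ± 0.262 (limma, adjusted p = 6.11e-04). Ctsb, a lysosomal cathepsin, rose by 1.33, Pcsk5, a proprotein convertase, by 1.22 and Timp1, a metalloproteinase inhibitor, by 0.83. Other Ctsb probe sets read 0.715, which was called, and 0.37 and 0.375, which were not. Those of Pcsk5 read −0.015 and 0.09 and that of Timp1 0.035, and none of these was called. Procr, the protein C receptor, fell by 1.92, from 10.42 and 10.69 to 8.86 and 8.41. Psap, the precursor of the saposins that activate sphingolipid breakdown, went from 11.60 and 11.36 to 13.53 and 13.35 and rose by 1.96 ± 0.130 (limma, adjusted p = 9.7e-06), with 0.61 and −0.20 for its other probe sets, of which the first was called. Asah1, acid ceramidase, rose by 1.45, from 8.69 and 8.78 to 10.37 and 10.00, and Lamp1 and Lamp2, the main lysosomal membrane proteins, by 1.32 and 1.15. Becn1, of autophagosome formation, rose by 0.79. Of the 16 lysosome genes 11 rose without each array in turn. Cd68, 1 of the 16, is also a leukocyte marker.

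In the innate immune and cytokine list 12 of 44 measured genes rose and 4 fell, and of 29 interferon and MHC genes 12 rose and none fell. Il1r1, the signalling IL-1 receptor, read 9.38 and 9.44 at 9 h and 10.90 on both arrays of 14 h and rose by 1.49 ± 0.210 (limma, adjusted p = 6.11e-04). The decoy receptor Il1r2 rose by 1.25, the receptor antagonist Il1rn by 1.27 and Il1b by 0.94, and the other Il1r2 probe set read 0.36 and was not called. Cxcl2, a neutrophil chemokine, read 6.16 and 6.01 at 9 h and 7.22 and 8.15 at 14 h and rose by 1.60. Socs2, a suppressor of cytokine signals, fell by 1.20, from a mean of 11.98 to 10.78 on both arrays. Irf9, of the interferon receptor complex, rose by 1.12, from 9.63 and 9.00 to 10.58 and 10.30. Gbp2 and Gbp3, guanylate-binding proteins, rose by 0.95 and 0.88 and Tap2, the peptide transporter, by 0.81. Leaving out the EP2KO 9 h array left 6 cytokine genes and 7 interferon genes higher, and the EP2KO 14 h array 7 cytokine genes.

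Of 37 measured leukocyte markers 14 rose and none fell, with a median change of 0.32 (0.17 in WT and 0.52 in EP2KO), and 9 of the 14 rose without each array in turn. Their summed linear signal at 9 h came to 7835 in WT and 7614 in EP2KO, and at 14 h to 9423 and 12179, against 6426 to 8579 on the arrays of 0 and 3 h. Cd53, a tetraspanin of leukocytes, read 5.50 and 5.45 at 9 h and 7.15 and 8.0 at 14 h and rose by 2.10 ± 0.207 (limma, adjusted p = 7.16e-05). S100a8, a calcium-binding protein of neutrophils, went from 6.69 and 6.46 to 8.16 and 9.24, Lyz2, lysozyme, from 5.34 and 5.36 to 6.56 and 7.65, and Tyrobp, a myeloid adaptor, from 6.88 and 6.85 to 7.85 and 8.80. In each of the 4 the EP2KO array was the higher of the 14 h arrays. Of the defining markers Ptprc, CD45, stayed low, at 5.53 and 5.57 at 9 h and 5.61 and 5.65 at 14 h, while another of its probe sets was called at 0.44. Itgam, Adgre1 and Csf1r, of myeloid cells and macrophages, read 7.09 to 7.86 at 14 h with changes of 0.30, 0.31 and 0.39, none called. The part of these cells in the rises of Lilr4b, Arg1, Ctss, Saa3 and the cytokine genes was not tested. In bulk RNA more cells of a type and more RNA per cell cannot be told apart.

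Markers of the oviduct epithelium showed 1 large change. Of 25 measured markers 6 were higher and none lower, with a median change of 0.08. The summed linear signal went from 6863 and 7060 at 9 h to 9422 and 10986 at 14 h in WT and EP2KO. Most of that rise came from Ovgp1 alone, so the sum does not show a general gain of these markers. Besides Ovgp1 the called genes were Krt18, Krt19, Krt8, Lcn2 and Cd24a, at 1.5, 0.61, 0.60, 0.52 and 0.50, and all 5 lost their calls without at least 1 array. Krt18, a keratin of simple epithelia, read 6.49 and 6.51 at 9 h and 7.22 and 8.79 at 14 h. Without the EP2KO 9 h array only Ovgp1 was called, without the EP2KO 14 h array 2 genes were, and without the WT 9 h array 3. The epithelial adhesion molecule Epcam read 5.20 and 5.46 at 14 h, and the ciliated-cell factor Foxj1 changed by −0.07. The part of oviduct cells in the rise of Ovgp1 was not tested.

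Of 21 theca and stroma markers 4 were higher and none lower, and without the WT 9 h, WT 14 h or EP2KO 9 h array 2 were. Of 14 endothelial markers 1 was lower, Eng, and of 19 oocyte markers 1 was higher and 1 lower, H1f8 and Rgs2, both of which lost their calls when any single array of 9 or 14 h was left out. Of 9 erythroid markers 1 was lower, Bpgm. Their summed linear signal at 9 h came to 13510 in WT and 3630 in EP2KO, and at 14 h to 3971 and 4351, set apart on the WT 9 h array by Hba-a1 at 13.39. Hba-a1, alpha globin, thus changed by −2.48 in WT and 0.20 in EP2KO and was not called.

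**Figure D4:**
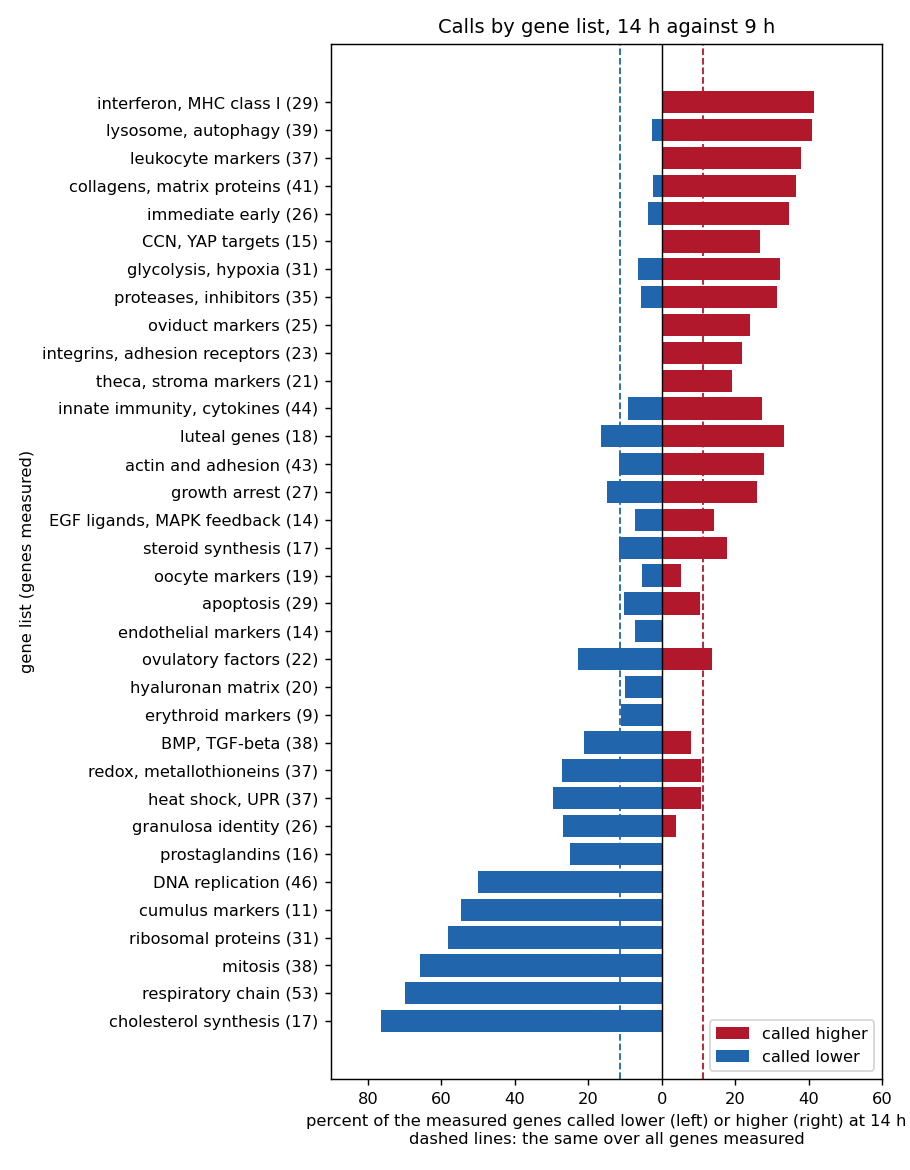
For each gene list, with its number of measured genes in brackets, bars give the percent of genes called higher (right) and lower (left) at 14 h against 9 h, and dashed lines the 11.3% and 11.4% over all genes measured. Cholesterol synthesis, the respiratory chain and mitosis reach furthest to the left and the interferon, lysosome and leukocyte lists furthest to the right.

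Of 31 measured genes of glycolysis and the hypoxia response 10 rose and 2 fell, with a median change of 0.28. Pkm, pyruvate kinase, read 11.73 and 12.14 at 9 h and 13.25 and 13.17 at 14 h and rose by 1.27 ± 0.144 (limma, adjusted p = 1.65e-04). Pfkl, phosphofructokinase, rose by 1.22, from 10.01 and 10.68 to 11.83 and 11.30, and Pgk1, phosphoglycerate kinase, by 1.06. These 3 genes had been higher at 0 h than at 9 h, with Pkm at 12.77 and 13.16. Hk1, a hexokinase, fell by 1.80, from 11.01 and 11.34 to 9.26 and 9.49, and Ldhb, a lactate dehydrogenase subunit, by 1.56. Without the WT 9 h or the WT 14 h array 4 of the 31 were higher.

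Of 53 measured genes of the respiratory chain and ATP synthase 37 fell and none rose, with a median change of −0.84 (−0.67 in WT and −0.93 in EP2KO), and 29 fell without each array in turn. Atp5e, a small subunit of the ATP synthase, read 9.61 and 9.99 at 9 h and 7.54 and 7.55 at 14 h and fell by 2.26 ± 0.188 (limma, adjusted p = 2.87e-05). Ndufb8, of complex I, fell by 1.98, from 10.19 and 10.56 to 8.31 and 8.48. Cox7b, of cytochrome oxidase, fell by 1.72 and Uqcrq, of the bc1 complex, by 1.38. Proton-pumping complexes and the ATP synthase were thus both among the falls. The mean level over the 53 genes was 10.20 and 10.41 at 9 h and 9.52 and 9.47 at 14 h, after 9.89 and 10.04 at 0 h and 10.71 and 10.63 at 3 h. The Gapdh 3′ minus 5′ difference ran the other way in WT and EP2KO. It was 0.80 and 0.96 at 3 h, 1.71 and 1.22 at 9 h, and 2.87 and 2.82 at 14 h. For Actb the difference was 0.73 and 0.76 at 3 h, 1.54 and 1.12 at 9 h, and 1.61 and 1.37 at 14 h. The part of either difference in these falls was not tested.

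Cytoplasmic ribosomal proteins showed a similar pattern on a smaller scale. Of 31 measured genes 18 fell and none rose, with a median change of −0.43. Rps7 read 12.67 and 13.18 at 9 h and 10.61 and 10.93 at 14 h and fell by 2.15 ± 0.145 (limma, adjusted p = 9.7e-06), and Rpl19 and Rps18 fell by 1.58 and 1.39. After quantile normalization 11 were lower and the median was −0.18. Without the WT 14 h array 11 were lower and without the EP2KO 9 h array 9. These genes have many near-identical pseudogenes, so a probe set may read more than 1 of them.

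**Figure D5:**
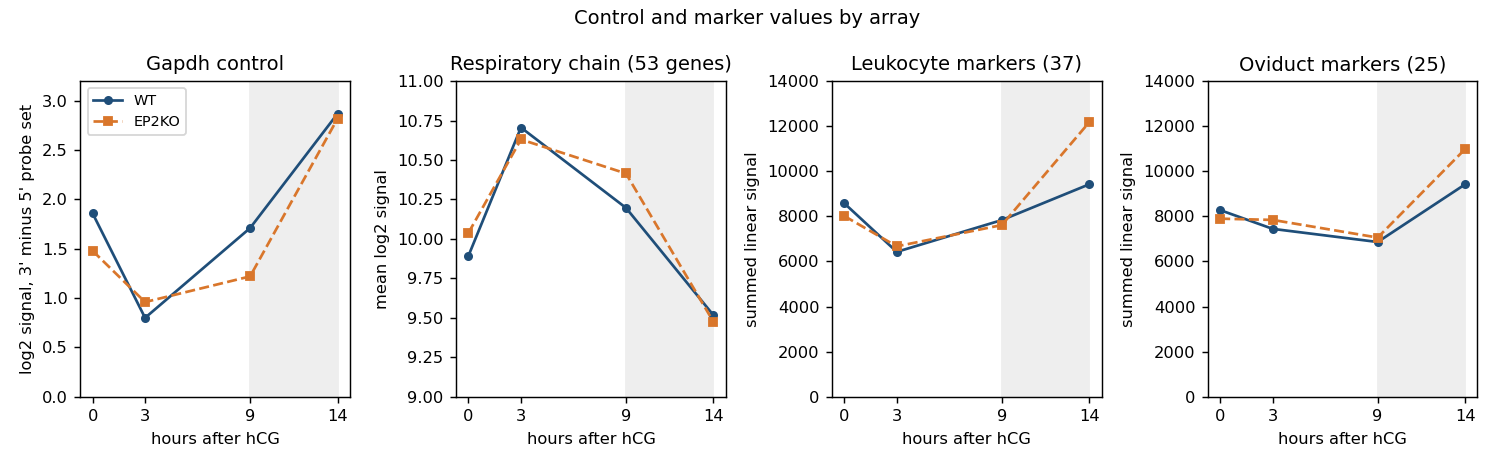
Panels show, against hours after hCG with 1 array per point, the 3′ minus 5′ difference of the Gapdh controls (log2), the mean log2 signal of the 53 respiratory chain genes, and the summed linear signal of the 37 leukocyte and 25 oviduct markers. From 9 to 14 h the Gapdh difference and both marker sums are higher and the respiratory chain mean is lower in both genotypes. Most of the rise in the oviduct sum comes from Ovgp1.

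Of 37 measured heat shock and unfolded protein response genes 11 fell and 4 rose, and of 37 redox and metallothionein genes 10 fell and 4 rose. Manf, a secreted protein of endoplasmic reticulum stress, read 12.09 and 12.32 at 9 h and 10.52 and 10.23 at 14 h and fell by 1.83 ± 0.179 (limma, adjusted p = 6.78e-05). Hspe1, the mitochondrial co-chaperonin, fell by 1.29 and Hspa5, the main endoplasmic reticulum chaperone, by 0.96. Pdia4, a disulfide isomerase of the same compartment, rose by 1.55, from 8.40 and 8.71 to 10.29 and 9.92. Gstp1, a glutathione transferase, fell by 1.93 and Mt2, a metallothionein, by 1.67, while Gsr, glutathione reductase, rose by 1.62 and Gpx3, a secreted peroxidase, by 1.21. Without the EP2KO 9 h array 6 of the 37 heat shock genes were lower.

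The change from 9 to 14 h was also compared between genotypes, which asks whether loss of EP2 alters the step across ovulation. No probe set of 12422 passed (0% called), and 290 had an unadjusted p under 0.05 (2.33%). That share is below what a threshold of 0.05 lets through where nothing differs. The smallest adjusted p was 0.998 in limma. The median standard error of this difference was 0.309, and the fit left 1 residual degree of freedom. Under other settings limma called 22 with a trended and robust prior, 10 with a genotype term at 14 h only, and 1 after quantile normalization. Across probe sets, which are not independent, the changes in WT and EP2KO correlated with r = 0.812.

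The 5 genes with the smallest p are given as values. Lilr4b changed by 2.56 in WT and 4.36 in EP2KO, a difference of 1.80 ± 0.298 (SE; unadjusted p = 3.8e-04 in limma, not called after adjustment). Ccl2, a monocyte chemokine, read 4.81 in WT and 4.99 in EP2KO at 9 h and 5.46 and 7.44 at 14 h, a difference of 1.80 ± 0.316. Wnk1, a kinase of ion transport, read 8.71 at both times in WT and went from 7.39 to 9.09 in EP2KO, but 2 other probe sets gave 1.24 and 0.41 in EP2KO and −0.02 and 0.72 in WT. Fubp1, a regulator of Myc, changed by 0.39 in WT and −1.25 in EP2KO. Hmgb2, a chromatin protein of dividing cells, changed by 0.01 in WT and −1.73 in EP2KO. Among related chemokines Ccl7 read 4.80 in WT and 5.80 in EP2KO at 14 h after 4.85 and 4.84 at 9 h, and it was not called for the change (adjusted p = 0.207).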

How the data were processed

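Cumulus cell RNA of 8 samples was hybridised to Affymetrix MG_U74Av2 arrays, 1 array each, after 2 rounds of amplification from 100 ng of total RNA, per the labels' protocols. The deposited values are log2 signals with 2 decimals, which the authors made with RMA, per the submitters' processing notes; those notes name no version. They were used as deposited, with no constant added and no filter on low values. Of 12488 probe sets 66 controls were left out, so 12422 were tested. Of these 10833 carry 1 symbol (8251 genes), 396 several and 1193 none, from the platform annotation.

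Limma 3.58.1 in R 4.3.3 fitted time and genotype to all 8 arrays (3 residual degrees of freedom, prior 7.24), contrast 14 h minus 9 h. For the genotype difference in that change, genotype terms at 9 h and 14 h were added (1 residual degree of freedom, prior 6.58). P-values are two-sided and adjusted over those 12422 by the Benjamini-Hochberg method, with a threshold of 0.05. The fits were also run on simulated data with known changes and the same level of independent noise for all probe sets. Noise in the real data need not be of that kind, so the run does not show how reliable the calls are. Precision is limited by the number of arrays.

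A gene in a list stands for its probe set with the highest mean. In the 34 lists, 888 genes were measured. Of 130 further probe sets of called list genes, 40 were called in the same direction, 3 in the opposite one and 87 not. List genes whose brightest probe set was not called are outside this count and count as not called. Some had another probe set that was called, such as Cdkn1a at 1.55 and Gstm5 at −1.88. Named genes are the 15 with the largest rises and the 15 with the largest falls past the threshold with 1 symbol and the same sign in both genotypes, each by its probe set of smaller p. For the genotype difference they are the 5 with the smallest p. List members and Ptger2 could also be named. The lists, the comparison and these rules were chosen with earlier results of these data known. Motifs were searched in the 250 bases before each start of the RefSeq promoter table on GRCm38.p6. Alternatives were median centring, quantile normalization, a filter on dim probe sets, other terms or priors, fewer arrays, and probe sets averaged per gene.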

Additional observations from a re-analysis of the deposited data

Results flagged for a closer look

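Among the 5 genes named for the genotype difference, Fubp1 had changes of opposite sign in WT and EP2KO, and Hmgb2 fell in EP2KO with almost no change in WT. The 5 were picked for a small p of that difference, and genes named for the change had to share their sign. How often signs differ among named genes is therefore set by the rules. Fubp1 read 7.33 in WT and 8.11 in EP2KO at 9 h and 7.72 and 6.86 at 14 h, so the EP2KO change was lower than the WT change by 1.64 on the log2 scale, a difference of −1.64 ± 0.296 (SE). The 2 other Fubp1 probe sets changed by −0.36 and −0.43 in EP2KO and by 0.13 and −0.10 in WT. Hmgb2 read 7.78 and 8.09 at 9 h and 7.79 and 6.36 at 14 h, a difference of −1.74 ± 0.324, with a WT change of 0.01. Neither difference passed in limma (adjusted p = 0.998 for both), and each rests on 1 array per genotype and time.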

How the results depend on the processing

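The arrays of 9 and 14 h pair by genotype, which was a term of the fit; without it 2482 probe sets were called, 2391 of them among the 2496. For the 30 named genes 414 values under the alternatives gave 410 with the same direction and call and 4 that lost the call, with 0 reversed. With only the 4 arrays of 9 and 14 h, a fit with 1 residual degree of freedom, 301 probe sets were higher and 398 lower, 699 in all. Leaving out each array in turn gave 606 to 1327 higher, 680 to 1341 lower and 1286 to 2668 in all. The genotype difference gave 1 call after quantile normalization, 22 with the trended and robust prior and 10 with a term at 14 h only. Counts over gene lists with the 4 arrays alone or an array left out were added after seeing the data.

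With the 4 arrays alone, genes called higher numbered 5 for immediate early genes, 5 for actin, 2 for adhesion receptors, 5 for matrix proteins, 2 for CCN and YAP, 6 for proteases, 1 for steroid genes, 3 for luteal markers, 3 for growth arrest, 1 for apoptosis, 2 for cytokines, 2 for interferon, 1 for glycolysis, 8 for lysosomes, 1 for leukocyte, 1 for theca and 1 for oviduct markers. Genes called lower numbered 0 for prostaglandins, 1 for ovulatory factors, 1 for granulosa identity, 6 for DNA replication, 5 for mitosis, 1 for apoptosis, 20 for the respiratory chain, 7 for ribosomal proteins, 5 for heat shock, 4 for BMP and TGF-beta and 3 for cumulus markers.

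Without each array in turn, counts ranged from 1 to 4 for prostaglandins, 3 to 5 for ovulatory factors, 5 to 13 for actin, 3 to 7 for adhesion receptors, 9 to 16 for matrix proteins, 12 to 24 for DNA replication, 6 to 12 for cytokines, 7 to 13 for interferon, 4 to 11 for glycolysis, 9 to 18 for ribosomal proteins, 6 to 12 for heat shock, 2 to 4 for theca and 1 to 6 for oviduct markers. Quantile normalization gave 11 ribosomal proteins lower, and the mean over probe sets 2 theca markers higher. The cause of these shifts was not tested. Precision is limited by 1 array per genotype and time.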

Other observations

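Of 18 measured markers of the corpus luteum, the tissue that granulosa cells left in the follicle form, 6 rose and 3 fell, with a median change of 0.15. Apoe, a lipid carrier, read 8.17 in WT and 8.41 in EP2KO at 9 h and 9.93 and 10.91 at 14 h and rose by 2.13 ± 0.254 (limma, adjusted p = 2.3e-04), while its other probe set was not called. Sfrp4, a secreted WNT antagonist, went from 10.44 and 10.08 to 11.92 and 11.73, and Sgk1, a serum-induced kinase, from 11.43 and 11.52 to 13.07 and 12.85. Both rose above their 9 h arrays without overlap. Lgals3, galectin 3, which macrophages also express, rose by 1.14. Apoa1, an apolipoprotein, fell by 1.49 and Rgcc by 0.91. Cd24a, also called higher, lost its call without 6 of the 8 arrays in turn.

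Of 27 measured growth arrest genes 7 were higher and 4 lower. Gadd45a, a stress sensor, read 9.15 and 9.22 at 9 h and 11.04 and 10.24 at 14 h and rose by 1.45 ± 0.222, and its relative Gadd45g fell by 1.68 ± 0.127, from 9.34 and 9.62 to 7.66 and 7.94 (limma, adjusted p = 9.85e-04 and 1.62e-05). Gas2, a cytoskeletal protein of arrested cells, rose by 1.26, and its other probe set was not called. Of 29 measured apoptosis genes 3 were higher and 3 lower, shares near the 11.3% and 11.4% of all genes. Bcl2l2, which protects cells, rose by 0.77, and Bok, a pro-death relative, and Cycs, cytochrome c, fell by 1.03 and 1.0. In contrast, Bnip3, a pro-death gene, was called higher and Xiap, a caspase inhibitor, lower. Bnip3 lost its call without the WT 9 h or the WT 14 h array, and Xiap without any single array of 9 or 14 h.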
